A study of Sus scrofa with 20 samples.

Results

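The genes described here carry glucose into the muscle fibre and relay the insulin signal that governs this step. The members are the glucose transporters SLC2A1 and SLC2A4, the transcription regulator SLC2A4RG, the hexokinases HK1 and HK2, the insulin receptor INSR and its adaptor IRS1, the kinases AKT1 and AKT2, and the AKT substrate TBC1D4. They were chosen by name, with earlier results of these data known, and every probe set whose only gene symbol was that of a member was taken. This gave 23 of the 45922 porcine probe sets tested, for 9 of the 10 members (13609 gene symbols in all). No probe set is named HK2 here, so HK2, an inducible hexokinase of muscle, was not analysed. Of the 23 probe sets, 19 had a mean signal above 3.93 on the log2 scale, the mean of the 69 background probe sets of the array, and the other 4 were at or below it.

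Expression was measured in the longissimus, a back muscle, of 10 Duroc and 10 Pietrain pigs, with 1 Affymetrix Porcine Snowball array for each animal. Duroc is a breed with more fat. The Pietrain animals, called PiNN, belong to a lean and muscular breed and were homozygous negative for malignant hyperthermia syndrome, which means that they carried no copy of the RYR1 variant that causes it. All animals are labelled adult, and neither breed received a treatment. The labels place the sampling 24 h before slaughter, whereas the study's methods describe muscle taken after slaughter for the DNA samples, and feeding state and insulin at sampling are not given in the labels. Breed is the only difference the labels give, so line and history of the animals cannot be told apart from it. Sex is not given in the labels, and whether it was balanced between the breeds is not known here.

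After a meal, insulin binds its receptor at the surface of the fibre, and the receptor phosphorylates adaptors such as IRS1. These recruit PI3-kinase, whose lipid product brings AKT to the membrane. AKT phosphorylates TBC1D4, a brake on vesicle movement, and vesicles that hold GLUT4, the product of SLC2A4, then fuse with the surface. GLUT1, the product of SLC2A1, carries glucose without insulin, and hexokinases trap the sugar in the cell by phosphorylation. Most of this control acts on proteins and on their place in the cell, which mRNA levels do not show.

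The arrays were comparable in overall level. Array medians lay between 4.61 and 4.73 on the log2 scale, correlations between arrays between 0.953 and 0.986, and 62.3% of the tested probe sets had a mean above that of the background probe sets. The background level itself, the mean of the background probe sets of an array, was 3.89 ± 0.126 in Duroc and 3.96 ± 0.116 in PiNN (SD, n = 10 each, permutation p = 0.201, two-sided). It was above 4 in Duroc 24, 31 and 32 and in PiNN 36 and 49, and highest in PiNN 49 (4.21). Of the 14 muscle fibre markers listed, 13 were measured and all were above background, with array means of 12.4 to 12.7 in Duroc and 12.2 to 12.8 in PiNN. In a piece of whole muscle, fewer cells of a type and less RNA in each cell cannot be told apart.

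None of the 23 member probe sets passed the test between the breeds (limma, Benjamini-Hochberg adjusted p under 0.05 over all tested probe sets), against 4.17% of all probe sets tested. At an unadjusted p under 0.05 there were 2 of 23 (8.70%), in AKT1 and SLC2A1, against 17.3% of all probe sets. With the analysis of variance of the study's methods there were 3, with SLC2A4RG added, against 17.1% of all. The mean was higher in PiNN for 17 of the 23 and in Duroc for 6, and 54.9% of all tested probe sets also had the higher mean in PiNN. Of these signs, those of SNOWBALL_020104_st of HK1, SNOWBALL_033124_st of INSR and TBC1D4, all with a difference near 0, turned with quantile normalization, and the last 2 also with centring on array medians. The median difference, Duroc minus PiNN, was -0.08 over the members and -0.02 over all probe sets. In each of the 23, the ranges of the 2 breeds overlapped. How often this held over all tested probe sets is not given here, so it does not set the members apart. The largest difference was that of AKT1, which had an adjusted p of 0.0640 and passed under 6 of the 29 other settings tried.

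**Figure D1:**
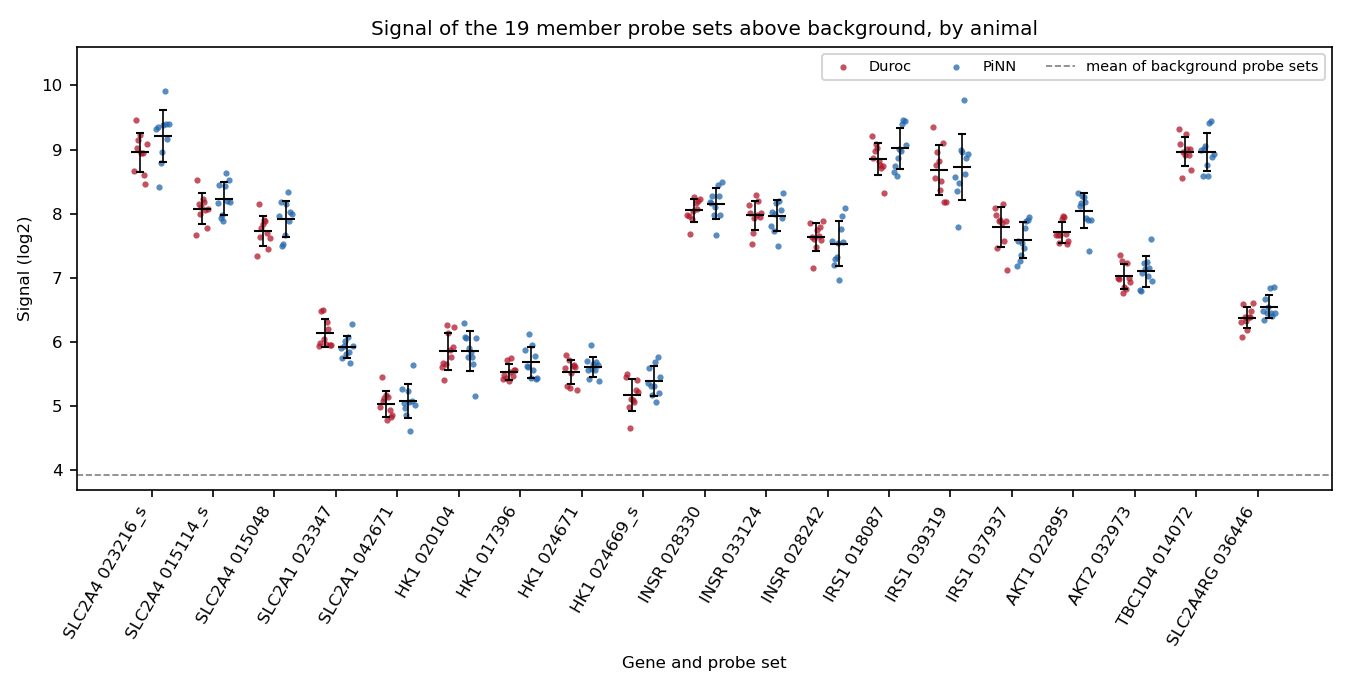
Log2 signal of each animal (points, red Duroc and blue PiNN, n = 10 each) for the 19 member probe sets above background, with the breed mean and SD in black and the mean of the background probe sets as a dashed line. Red and blue points overlap in every column, and the widest gap between means is that of AKT1, at 7.71 in Duroc and 8.05 in PiNN.

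SLC2A4 encodes GLUT4, the transporter that insulin moves to the fibre surface. It was read by 3 probe sets, and in all 3 the mean was higher in PiNN, by less than the test could tell from the spread. The first, SNOWBALL_023216_s_st, ranged from 8.46 through a median of 8.99 to 9.47 in Duroc, and from 8.42 through 9.34 to 9.91 in PiNN. PiNN thus held both the lowest and the highest animal, while 1 Duroc animal lay above the PiNN median. The difference was -0.25 (SE 0.150, 95% interval -0.56 to 0.06, adjusted p = 0.426).

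The second SLC2A4 probe set, SNOWBALL_015114_s_st, ran from 7.66 to 8.53 in Duroc (median 8.09) and from 7.88 to 8.63 in PiNN (median 8.19). Its difference was -0.16 (SE 0.111, adjusted p = 0.508). The third, SNOWBALL_015048_st, ran from 7.34 to 8.15 in Duroc (median 7.74) and from 7.50 to 8.35 in PiNN (median 7.98), with a difference of -0.19 (SE 0.114, adjusted p = 0.429). Here 3 PiNN animals lay above the highest Duroc animal and 1 Duroc animal above the PiNN median. The mean of the 3 probe sets gave -0.20 (SE 0.119, 95% interval -0.45 to 0.05, adjusted p = 0.422), an interval that allows SLC2A4 to be up to 1.36-fold higher in PiNN. Without the 5 arrays of high background the differences of SNOWBALL_015114_s_st and SNOWBALL_015048_st were smaller, at -0.04 and -0.09, and that of SNOWBALL_023216_s_st was -0.23.

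The 3 SLC2A4 probe sets also followed each other among animals. After the breed means were subtracted, Pearson's r over the 20 animals was 0.76, 0.85 and 0.93 for the 3 pairs, with Spearman's rho of 0.56, 0.72 and 0.87 (permutation tests adjusted over the 16 same-gene pairs of members: p = 3.6e-04, 2.4e-04 and 1.6e-04 for r, and 0.0191, 0.00336 and 1.6e-04 for rho). Without the 2 animals farthest from the median, r was 0.69, 0.78 and 0.89. Within Duroc r was 0.75 to 0.93 and within PiNN 0.77 to 0.93. The animals therefore kept a similar order in all 3 readings of SLC2A4.

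SLC2A1 encodes GLUT1, the basal transporter. In SNOWBALL_023347_st the signal ranged from 5.94 through a median of 6.02 to 6.49 in Duroc and from 5.67 through 5.92 to 6.28 in PiNN. All 10 Duroc animals lay above the PiNN median, and 3 of them lay above every PiNN animal. The difference was 0.22 (SE 0.0941, 95% interval 0.02 to 0.41, unadjusted p = 0.0316, adjusted p = 0.227), which did not pass.

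The other SLC2A1 probe set, SNOWBALL_042671_st, did not share this pattern. It ran from 4.78 to 5.45 in Duroc (median 5.03) and from 4.62 to 5.64 in PiNN (median 5.06), with a difference of -0.04 (SE 0.106, adjusted p = 0.896). Among animals the 2 probe sets were related by r = 0.35 and rho = 0.28 (adjusted permutation p = 0.169 and 0.300, r = 0.08 without the 2 farthest animals). Red blood cell markers were read beside SLC2A1. Of 10 listed, 7 were measured and 5 were above background, with array means of 4.94 to 5.37 in Duroc and 5.22 to 5.70 in PiNN. Among them ALAS2, the first enzyme of red cell haem synthesis, was higher in PiNN (3.91 in Duroc, 4.42 in PiNN, adjusted p = 0.0327). Its Duroc mean lay below the background mean of 3.93. This call was 10% of the 10 probe sets of the list, against 4.17% of all tested. HBB, a globin chain, stood at 6.41 and 7.57 (adjusted p = 0.0527), and GYPC differed by -0.32 (adjusted p = 0.108). HBM and SLC4A1 differed by -0.05 and -0.01 (adjusted p = 0.816 and 0.974), and EPB42 and AHSP were below background. The ALAS2 call was lost with the background covariate and without the 5 arrays of high background. With quantile normalization HBB, GYPC and ALAS2 were called, all higher in PiNN (30% of the 10 probe sets, against 4.78% of all tested). Their part in the SLC2A1 values was not tested.

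HK1 encodes the hexokinase found in most tissues, which makes glucose 6-phosphate. Its 4 probe sets were all above background. The mean was higher in PiNN in all 4 by unequal amounts, but the sign of the smallest difference, that of SNOWBALL_020104_st, turned with quantile normalization and without the 5 arrays of high background. SNOWBALL_024669_s_st ranged from 4.66 through a median of 5.17 to 5.50 in Duroc and from 5.06 through 5.34 to 5.77 in PiNN, and 9 of the 10 PiNN animals lay above the Duroc median. The difference was -0.22 (SE 0.108, 95% interval -0.44 to 0.01, adjusted p = 0.305).

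SNOWBALL_017396_st of HK1 ran from 5.39 to 5.75 in Duroc and from 5.42 to 6.13 in PiNN, where 4 animals lay above every Duroc animal, and the difference was -0.15 (SE 0.0917, adjusted p = 0.433). SNOWBALL_024671_st, from 5.26 to 5.80 and from 5.39 to 5.95, gave -0.08 (SE 0.0860, adjusted p = 0.714). SNOWBALL_020104_st, from 5.41 to 6.26 and from 5.15 to 6.30, had breed means of 5.86 each, with a difference of -0.00414. The mean of the 4 gave -0.11 (SE 0.0718, adjusted p = 0.461).

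The HK1 probe sets did not order the animals alike. Of their 6 pairs, SNOWBALL_017396_st with SNOWBALL_024671_st reached r = 0.58 (rho 0.57, adjusted permutation p = 0.0128 and 0.0188, r = 0.45 without the 2 farthest animals). The other 5 pairs lay between r = -0.36 and r = 0.13, with adjusted permutation p from 0.169 to 0.877 for r. The lowest of these, SNOWBALL_020104_st with SNOWBALL_024671_st, was r = -0.67 without the 2 farthest animals. The HK1 mean therefore joins readings that differ among animals.

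INSR encodes the insulin receptor, a tyrosine kinase. Its 3 probe sets above background placed the breed means in different orders. SNOWBALL_028330_st ranged from 7.68 through a median of 8.06 to 8.27 in Duroc and from 7.66 through 8.17 to 8.50 in PiNN (difference -0.10, SE 0.0988, adjusted p = 0.668). SNOWBALL_028242_st ran from 7.15 to 7.88 in Duroc and from 6.97 to 8.09 in PiNN, with a difference of 0.11 (SE 0.125, adjusted p = 0.739).

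In SNOWBALL_033124_st of INSR the breed means were 7.97 and 7.97, and the difference had a 95% interval of -0.22 to 0.22. Among animals the 3 probe sets agreed in spite of this: r was 0.73, 0.75 and 0.76 and rho 0.58, 0.63 and 0.71 (adjusted permutation p from 3.6e-04 to 5.6e-04 for r and from 0.00336 to 0.0184 for rho), and r was 0.47 to 0.58 without the 2 farthest animals. Their mean differed by 0.00 (SE 0.102, 95% interval -0.21 to 0.21). The fourth INSR probe set, SNOWBALL_031502_st, was below background, with breed means of 3.24 and 3.14.

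IRS1 encodes the adaptor that docks PI3-kinase on the activated receptor, and its probe sets were also split. SNOWBALL_018087_st ranged from 8.33 through a median of 8.84 to 9.21 in Duroc and from 8.59 through 8.99 to 9.46 in PiNN, with 3 PiNN animals above every Duroc animal (difference -0.17, SE 0.124, adjusted p = 0.547). SNOWBALL_037937_st went the other way, from 7.12 through 7.89 to 8.15 in Duroc and from 7.19 through 7.55 to 7.95 in PiNN, with 3 Duroc animals above every PiNN animal (difference 0.20, SE 0.128, adjusted p = 0.462). These opposite differences came from probe sets that followed each other within breeds, with r = 0.74 and rho = 0.69 over the 20 animals (adjusted permutation p = 6.86e-04 and 0.00380, r = 0.63 without the 2 farthest). SNOWBALL_039319_st, the third above background, followed the first of them (r = 0.69, rho = 0.66, adjusted permutation p = 0.00170 and 0.00579) more closely than the second (r = 0.40, rho = 0.35, adjusted permutation p = 0.130 and 0.181), a difference that was not itself tested.

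SNOWBALL_039319_st was the most variable of the members above background. It ranged from 8.19 through a median of 8.65 to 9.36 in Duroc and from 7.79 through 8.75 to 9.77 in PiNN, with an SD of 0.390 and 0.515. Only 7.11% of the tested probe sets above background had a larger SD within breeds. The breed difference was small beside this spread, at -0.06 (SE 0.186, 95% interval -0.44 to 0.33, adjusted p = 0.927). The mean of the 3 IRS1 probe sets differed by -0.01 (SE 0.128, 95% interval -0.27 to 0.26), and the fourth, SNOWBALL_044267_st, was below background at 1.71 and 1.89.

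AKT1 encodes a serine/threonine kinase activated below PI3-kinase, known for its part in growth and survival. Its only probe set, SNOWBALL_022895_st, ranged from 7.52 through a median of 7.67 to 7.96 in Duroc and from 7.42 through 8.14 to 8.32 in PiNN. In PiNN 6 animals lay above the highest Duroc animal, 9 lay above the Duroc median, and no Duroc animal reached the PiNN median. The ranges overlapped because PiNN 49 was at 7.42, below all Duroc animals, while the next PiNN animal was at 7.90.

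The AKT1 means were 7.71 ± 0.165 in Duroc and 8.05 ± 0.270 in PiNN (SD, n = 10 each), a difference of -0.33 (SE 0.102, 95% interval -0.55 to -0.12, unadjusted p = 0.00323, adjusted p = 0.0640), or a 1.26-fold higher signal in PiNN with an interval of 1.09 to 1.46. Without PiNN 49 the difference was -0.40 with an adjusted p of 0.00964 (4.34% of all probe sets called). In the other 19 fits with 1 animal left out AKT1 did not pass, and the adjusted p was at most 0.117, without PiNN 22. AKT1 also passed with only probe sets above background tested (adjusted p = 0.0442, 7.98% of probe sets called) and after quantile normalization (adjusted p = 0.0203, 4.78% called). It passed with array weights (adjusted p = 0.0113, 6.83% called), with the background level as a covariate (adjusted p = 0.0160, 4.73% called) and without the 5 arrays of high background (adjusted p = 0.0400, 5.83% called). It did not pass with the analysis of variance of the study's methods (adjusted p = 0.0742 with 3.33% called, or q = 0.0565 with 4.31% called), with centring on array medians (adjusted p = 0.0795, 3.26% called) or with a variance trend and robust fitting (adjusted p = 0.0671, 4.09% called). It was the only member that passed in any of these. In each of these settings the mean was higher in PiNN.

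**Figure D2:**
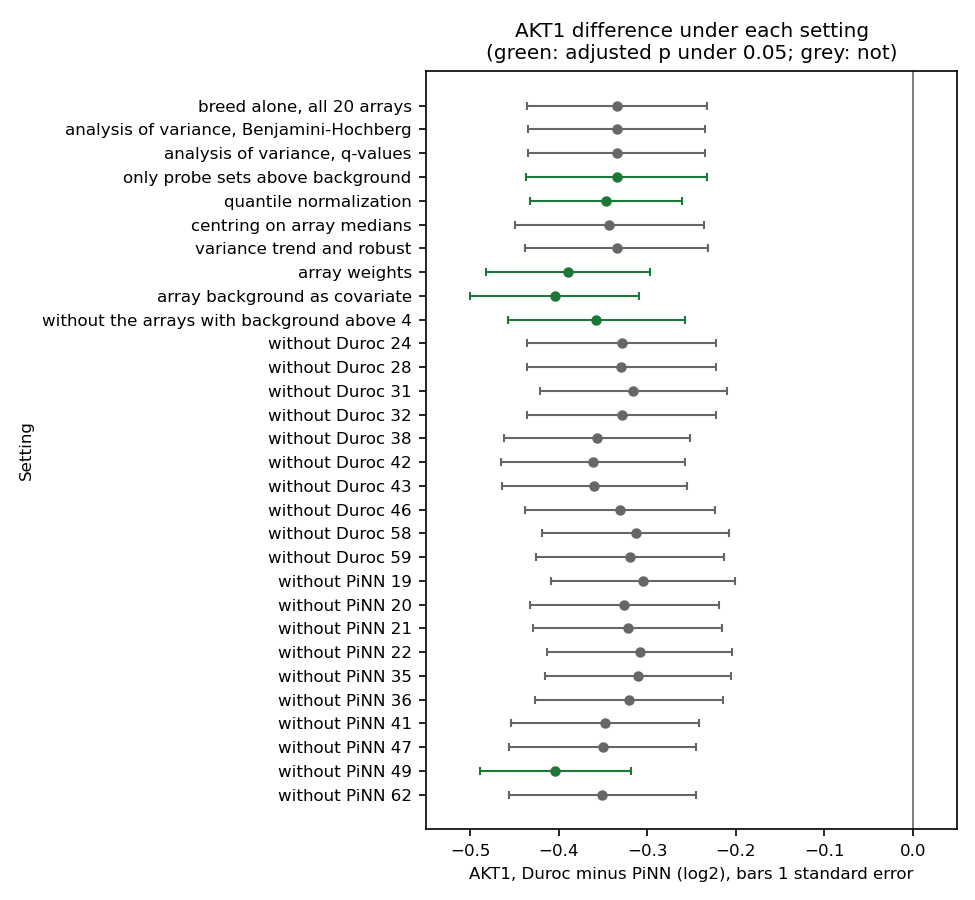
AKT1 difference, Duroc minus PiNN in log2 units, with bars of 1 standard error, for the fit with breed alone and the 29 other settings (rows), green where the adjusted p was under 0.05 and grey where it was not. The points run from -0.40 to -0.30, and 6 of the 30 rows are green.

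AKT2, the AKT kinase best known for the insulin control of GLUT4 in muscle and fat, did not differ detectably. SNOWBALL_032973_st ranged from 6.76 through a median of 6.99 to 7.36 in Duroc and from 6.79 through 7.10 to 7.61 in PiNN, with PiNN 49 the highest of all 20 animals. The difference was -0.08 (SE 0.101, 95% interval -0.29 to 0.13, adjusted p = 0.767), and the interval allows AKT2 to be at most 1.22-fold higher in PiNN. Its second probe set, SNOWBALL_034549_s_st, was below background at 2.76 and 2.90.

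TBC1D4, also known as AS160, is the AKT substrate that holds GLUT4 vesicles back until it is phosphorylated. Its probe set SNOWBALL_014072_st ranged from 8.55 through a median of 8.98 to 9.32 in Duroc and from 8.58 through 8.96 to 9.44 in PiNN. The breed means were 8.97 and 8.97, and 5 animals of PiNN lay above the Duroc median. The 95% interval of the difference, -0.24 to 0.24, allows a change of up to 1.18-fold in either direction.

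SLC2A4RG encodes a zinc finger protein that binds the SLC2A4 promoter in human cells. SNOWBALL_036446_st ranged from 6.08 through a median of 6.39 to 6.60 in Duroc and from 6.35 through 6.47 to 6.86 in PiNN. All but 1 of the PiNN animals lay above the Duroc median and 3 lay above every Duroc animal. The difference was -0.18 (SE 0.0852, 95% interval -0.35 to 0.00, unadjusted p = 0.0509, adjusted p = 0.292), and the analysis of variance gave an unadjusted p of 0.0347 and an adjusted p of 0.244. Its SD within breeds, 0.172, was the smallest of the 19. The other probe set, SNOWBALL_029225_st, was below background and had equal breed means of 3.58.

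**Figure D3:**
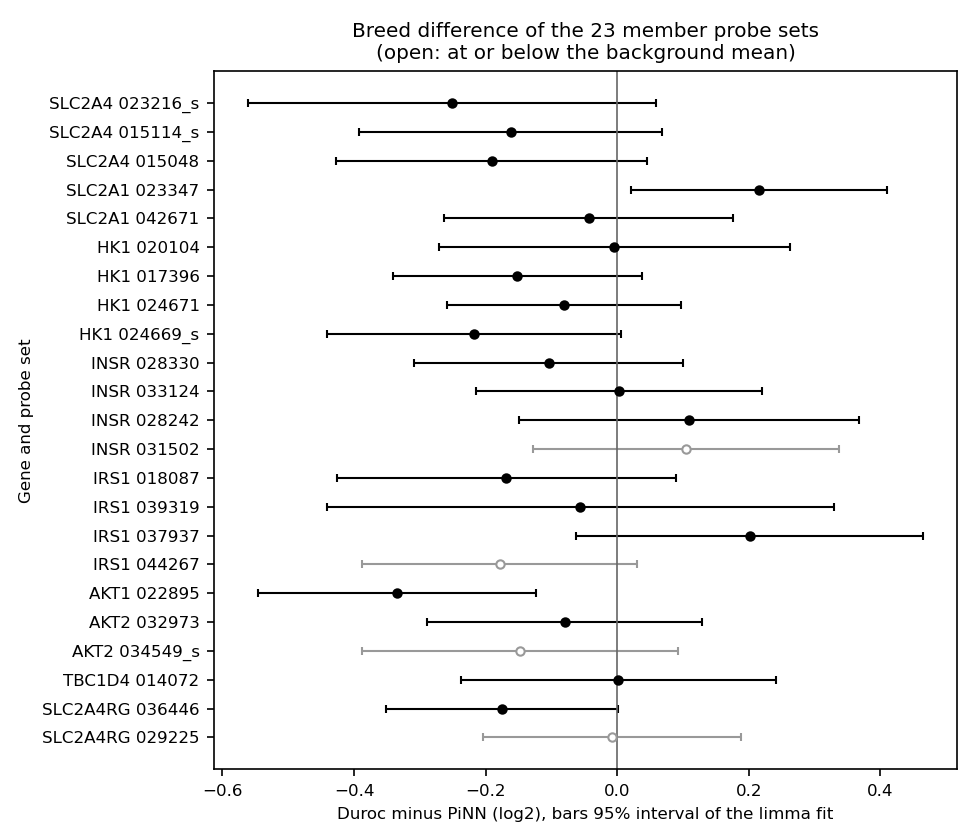
Difference of the breed means, Duroc minus PiNN in log2 units, for the 23 member probe sets, with 95% intervals of the limma fit (open grey points are the 4 probe sets at or below background). The intervals of AKT1 (-0.55 to -0.12) and of the first SLC2A1 probe set (0.02 to 0.41) do not include 0, and no adjusted p was under 0.05.

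The precision differed among members. The 95% intervals of the 19 probe sets above background had half-widths of 0.176 to 0.385, and the largest change that any of them allows is 1.48-fold, for the first SLC2A4 probe set.

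Several members moved with the background level of the array. Over the 20 animals, after subtraction of the breed means, SNOWBALL_020104_st of HK1 fell as background rose (r = -0.85, rho = -0.88, adjusted permutation p = 1.9e-04 for each, the smallest that 100000 permutations and 19 probe sets can give), and r was -0.74 without the 2 arrays farthest from the median background. AKT2 rose with it (r = 0.79, rho = 0.76, adjusted p = 4.75e-04 and 0.00180, r = 0.61 without 2 arrays). SNOWBALL_028330_st of INSR fell (r = -0.70, rho = -0.67, adjusted p = 0.00342 and 0.00864, r = -0.62) and SNOWBALL_018087_st of IRS1 rose (r = 0.66, rho = 0.67, adjusted p = 0.00670 and 0.00864, r = 0.62). The relation kept its sign within each breed for these 4. In SNOWBALL_039319_st of IRS1 it passed by rho alone (r = 0.46, rho = 0.55, adjusted permutation p = 0.118 and 0.0446).

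For AKT1 and SLC2A1 the relation to background was weaker without the 2 arrays farthest from the median background, though its sign was the same in each breed. In AKT1 r was -0.53 and rho -0.46 (adjusted permutation p = 0.0483 and 0.127), and r was -0.20 without the 2 farthest arrays. In SNOWBALL_023347_st of SLC2A1 r was 0.57 and rho 0.25 (adjusted p = 0.0318 and 0.667), and r was 0.28 without them. AKT1 had r = -0.43 within Duroc and -0.64 within PiNN, and this SLC2A1 probe set had 0.53 and 0.63. The 3 SLC2A4 probe sets showed r between -0.06 and 0.08 (adjusted p = 0.812). Within breeds r differed in sign for SNOWBALL_015114_s_st (-0.32 in Duroc, 0.44 in PiNN) and SNOWBALL_015048_st (-0.37 and 0.22). For SNOWBALL_023216_s_st it was 0.02 and 0.12. With the background level as a covariate, the difference was -0.40 for AKT1 and 0.28 for SLC2A1 (adjusted p = 0.0612), and that of AKT2 turned from -0.08 to 0.02. SNOWBALL_020104_st of HK1 then differed by -0.16 (adjusted p = 0.350), SNOWBALL_028330_st of INSR by -0.19 (adjusted p = 0.209) and SNOWBALL_018087_st of IRS1 by -0.06 (adjusted p = 0.848), each over 1.5 times away from its difference without the covariate.

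**Figure D4:**
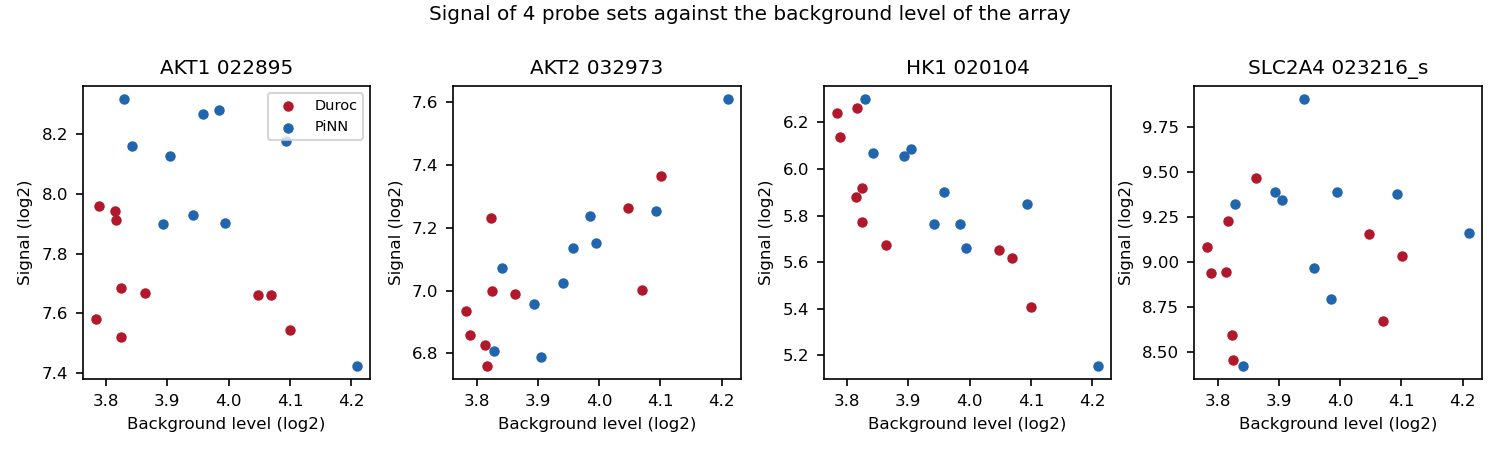
Log2 signal of AKT1, AKT2, the first-named HK1 probe set in the background comparison and SLC2A4 (vertical axes) against the background level of the array, also log2 (horizontal axes), for the 10 Duroc (red) and 10 PiNN (blue) animals. HK1 falls (r = -0.85) and AKT2 rises (r = 0.79) with background in both breeds, SLC2A4 shows r = 0.08, and in the AKT1 panel PiNN 49 is the point at 4.21 on the horizontal and 7.42 on the vertical axis.

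The genes most like each member were taken as those with the highest Pearson r over the 20 arrays after subtraction of the breed means, among 18589 named probe sets above background. Each member was read here by its probe set with the highest mean signal alone. This is a description and carries no test. AKT1 was closest to UBAC1 (r = 0.92) and GNB2 (0.87), AKT2 to PSMB2 (0.93) and GAK (0.89), and TBC1D4 to TM4SF20 (0.88) and ZIC1 (0.87). SLC2A4 was closest to LOC396781 (0.80) and SMYD5 (0.77), SLC2A1 to LSR (0.88) and ENDOG (0.87), and SLC2A4RG to FBXL15 (0.91) and CCDC102A (0.88). INSR was closest to TOP2B (0.89) and USP25 (0.88), and IRS1 to KDM4C and TSC22D2 (0.82 each). SNOWBALL_020104_st of HK1 was closest to RPS6, a ribosomal protein gene (0.96), and LOC100155572 (0.95). The RPS6 probe set had r = -0.84 with the array background and PSMB2 had r = 0.78, close to the values of SNOWBALL_020104_st and AKT2 themselves. The other HK1 probe sets had r = -0.06, 0.18 and -0.15 with background. USP25 and TOP2B had r = -0.81 and -0.69 with it, beside -0.70 for INSR, and ENDOG had 0.70, beside 0.57 for SLC2A1. SMYD5 had 0.06 and TM4SF20 had -0.21.

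Other genes of the pathway were read from 6 lists of 137 genes, of which 122 were measured by 305 probe sets. The lists were chosen with earlier results of these data known, so their shares called are a description only. In these, 18 probe sets passed with the higher mean in Duroc and 11 with the higher mean in PiNN (9.51% called in either direction, against 4.17% of all tested, of which 2.76% and 1.41% in each direction). These were 14 and 8 genes, and 100 genes had no call. Of the 305 probe sets, 234 were above background, whereas this held for 62.3% of all tested. The 2 shares called are therefore not of probe sets of like signal. The same holds for the shares of the single lists below. Above background were 48 of 62 probe sets for the receptor complex and 40 of 43 for AKT targets. For vesicle traffic it was 47 of 58, and for SLC2A4 transcription 36 of 43. With only probe sets above background tested, 7.98% of these were called, and the share of the lists in that setting is not given here. The median difference over the lists was -0.04, against -0.02 over all probe sets. The split between the breeds depended on the arrays, and so did that over all probe sets. It was 14 and 17 with the background level as a covariate and 15 and 17 without PiNN 49. Without the 5 arrays of high background it was 22 and 9. The share of all calls higher in Duroc was 66.1% with breed alone, and 48.5%, 53.9% and 75.6% in these settings, in that order. With each animal left out in turn the list counts ran from 10 to 23 in Duroc and from 2 to 17 in PiNN. The share of all calls higher in Duroc then ran from 53.9% to 72.9%.

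Other transporters and sugar kinases were close to the members in this. Of 16 genes with 41 probe sets, none passed, and 5 probe sets (12.2%) had an unadjusted p under 0.05, against 17.3% of all tested. SLC2A12, a further transporter, stood at 7.20 in Duroc and 7.31 in PiNN without a call, SLC2A3 at 5.97 and 6.12 (adjusted p = 0.519), and SLC5A1, a sodium-coupled transporter, at 4.70 and 5.35 (adjusted p = 0.182), in the probe set with the highest mean of each. TXNIP, which promotes removal of glucose transporters from the surface, stood at 11.2 and 11.3 in the probe set SNOWBALL_006620_st (adjusted p = 0.846). Without the 5 arrays of high background 2 of the 41 passed (4.88%, against 5.83% of all tested). These were SNOWBALL_024224_st of SLC5A1 (-0.89, adjusted p = 0.0494) and SNOWBALL_029433_st of SLC2A12 (0.40, adjusted p = 0.0453), whose mean signal of 3.93 was at the background level.

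Of 22 further genes of the receptor complex and PI3-kinase, 5 were higher in Duroc, 1 was higher in PiNN and 16 had no call (14.5% of 62 probe sets, against 4.17% of all tested). APPL1, an adaptor that binds AKT, ranged from 8.12 through a median of 8.62 to 8.81 in Duroc and from 7.50 through 8.04 to 8.35 in PiNN in SNOWBALL_023364_st, and 9 Duroc animals lay above every PiNN animal (difference 0.60, adjusted p = 0.00314). Its second probe set, SNOWBALL_028945_st, differed by 0.73 (adjusted p = 0.0360). PIK3R1, the regulatory subunit of PI3-kinase, ran from 8.30 to 9.23 and from 7.85 to 8.70 (0.54, adjusted p = 0.0120), and PIK3CA, a catalytic subunit, differed by 0.50 (adjusted p = 0.0204). SOS1, which links receptors to RAS, differed by 0.48 and 0.64 in 2 probe sets (adjusted p = 0.0106 and 0.0281), and CBL, a ubiquitin ligase, by 0.54 in SNOWBALL_025609_st (adjusted p = 0.0409), while its other 2 probe sets above background differed by -0.05 and 0.01 without a call. CAV3, the caveolin of muscle, was higher in PiNN by the fit, at 7.35 against 7.73 (adjusted p = 0.0490). IRS2 (7.65 and 7.91, adjusted p = 0.393) and the IGF1R probe set SNOWBALL_003019_st (7.09 and 7.30, adjusted p = 0.393) had no call.

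Among 17 genes of AKT targets and the mTOR complexes, 3 were higher in Duroc, 3 were higher in PiNN and 11 had no call. These calls were 18.6% of 43 probe sets, against 4.17% of all tested. With centring on array medians these were 3 and 1 genes (9.3% of the probe sets, against 3.26% of all tested). The 2 forms of glycogen synthase kinase 3, which AKT inhibits, were called in opposite directions. GSK3B was called only in its dimmest probe set, SNOWBALL_029878_st. It ranged there from 5.98 to 6.91 in Duroc and from 5.35 to 6.58 in PiNN (difference 0.63, adjusted p = 0.0144). Its brighter probe sets, SNOWBALL_015778_s_st, SNOWBALL_016204_st and SNOWBALL_042995_st, differed by 0.22, 0.30 and 0.34 without a call (adjusted p = 0.158, 0.0557 and 0.0631). GSK3A ranged from 8.10 to 8.60 in Duroc and from 8.31 to 8.76 in PiNN in SNOWBALL_008261_st (-0.28, adjusted p = 0.0380). In its other called probe set it differed by -0.51 (adjusted p = 0.0272). The breed means of that probe set, 3.75 and 4.26, lay on either side of the background mean of 3.93.

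RICTOR, a subunit of the mTOR complex that phosphorylates AKT, was higher in Duroc in both of its called probe sets, by 0.75 and 0.52 (adjusted p = 0.00583 and 0.0417), and RPS6KB1, a kinase below mTOR, by 0.39 (adjusted p = 0.0260). PFKFB2, which makes an activator of glycolysis, was higher in PiNN in 1 of its 5 probe sets, SNOWBALL_036957_st, at 4.57 in Duroc against 5.10 (adjusted p = 0.0401). Its other probe sets above background had no call and differed in sign, at -0.10 in SNOWBALL_012970_st and 0.20 in SNOWBALL_041916_st (adjusted p = 0.859 and 0.560). TSC1, a brake on mTOR, was higher in PiNN at 7.46 against 7.78 in SNOWBALL_004177_st (adjusted p = 0.0370).

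Of 27 genes of GLUT4 vesicle traffic, 5 were higher in Duroc and 2 in PiNN (12.1% of 58 probe sets, against 4.17% of all tested). The split was 3 and 4 with the background covariate (12.1% called, against 4.73% of all tested), where RAB10 and STXBP3 lost their calls and SCAMP3 and RAC1 gained one. It was 4 and 4 with quantile normalization (13.8%, against 4.78%) or without PiNN 49 (15.5%, against 4.34%). With centring it was 2 and 2 (6.9%, against 3.26%). LNPEP, an aminopeptidase that travels in the GLUT4 vesicle, ranged from 7.95 through a median of 8.54 to 8.84 in Duroc and from 6.61 through 7.68 to 8.44 in PiNN, a 1.74-fold difference (0.80 log2, adjusted p = 0.0110). KIF5B, a kinesin motor, ranged from 8.94 through 9.68 to 10.01 and from 8.41 through 8.85 to 9.31, a 1.71-fold difference (0.78 log2, adjusted p = 0.00327). In both, every Duroc animal lay above the PiNN median.

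The RAL regulator RALGAPA1 (0.50, adjusted p = 0.0418), the small GTPase RAB10 (0.35, adjusted p = 0.0466), a target of TBC1D4, and the syntaxin-binding protein STXBP3 (0.41, adjusted p = 0.0409) were also higher in Duroc. EXOC7, an exocyst subunit, was higher in PiNN, at 8.22 against 8.65 (adjusted p = 0.0254), as was STX4, the syntaxin at which GLUT4 vesicles dock, at 5.96 against 6.27 (adjusted p = 0.0353). TBC1D1, the relative of TBC1D4, stood at 6.73 and 6.62 (adjusted p = 0.812).

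Of 16 genes known to act on SLC2A4 transcription, 2 were called, both higher in PiNN in 2 probe sets each. These calls were 9.3% of 43 probe sets, against 4.17% of all tested, or 7.98% where only probe sets above background were tested. MEF2A and SP3 were called as well, higher in Duroc, with quantile normalization (16.3% called, against 4.78% of all tested). They were also called without the 5 arrays of high background (20.9% called, against 5.83% of all tested, with ZNF395 added in PiNN). MEF2D, a MEF2 factor, stood at 8.98 in Duroc and 9.29 in PiNN in SNOWBALL_006069_st and at 7.89 and 8.22 in the other (adjusted p = 0.0364 and 0.0307). THRA, a thyroid hormone receptor, stood at 9.30 and 9.71 in SNOWBALL_014562_st and at 6.71 and 7.06 in the other (adjusted p = 0.0348 and 0.0147). Of 24 inhibitors of insulin signalling, SOCS6 alone was called, higher in Duroc at 3.28 against 2.78 in SNOWBALL_033387_st, which is below background (adjusted p = 0.0130), while its probe set above background stood at 6.44 and 6.26 (adjusted p = 0.403). This was 1.72% of the 58 probe sets of the list, against 4.17% of all tested. No inhibitor was called without the 5 arrays of high background. INPPL1 and INPP5K were also called, higher in PiNN, with the background covariate, together with PPP2CB, and without PiNN 49, together with PPP2R1A. With quantile normalization INPPL1 and TRIB1 were called, higher in PiNN.

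**Figure D5:**
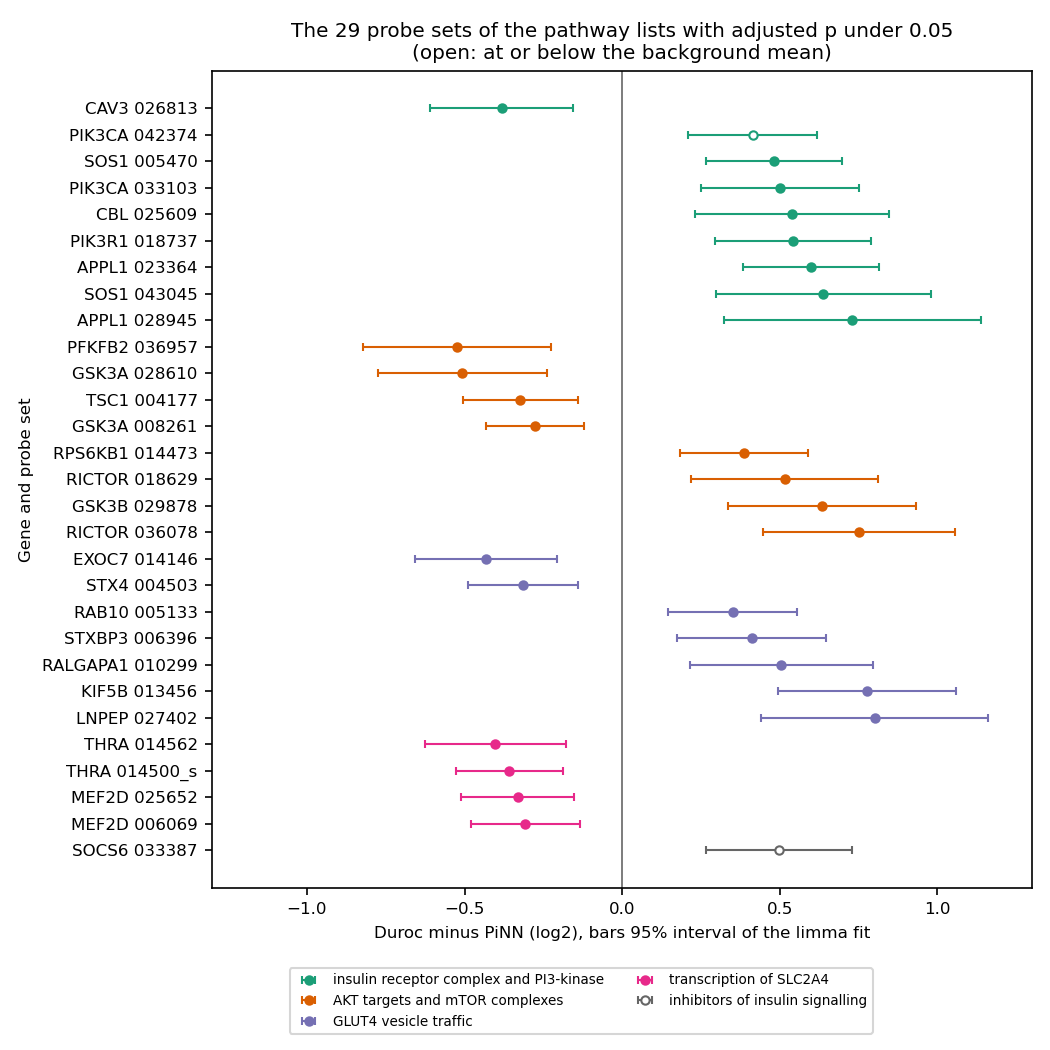
Difference, Duroc minus PiNN in log2 units, with 95% intervals of the limma fit, for the 29 probe sets of the pathway lists with an adjusted p under 0.05, coloured by list (open points are at or below background). The points run from -0.52 for PFKFB2 to 0.80 for LNPEP, with 18 to the right of 0 and 11 to the left.

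The calls differed in how often they were kept. In the 20 fits with 1 animal left out, SNOWBALL_023364_st of APPL1, PIK3R1, both called PIK3CA probe sets (the second below background), SNOWBALL_005470_st of SOS1, SNOWBALL_036078_st of RICTOR, GSK3B, KIF5B, LNPEP, SOCS6 and SNOWBALL_014500_s_st of THRA passed in all 20. Among the others CAV3 passed in 4, CBL and SNOWBALL_018629_st of RICTOR in 5 each, RAB10 in 6 and RALGAPA1 in 7, and STXBP3, TSC1, SNOWBALL_008261_st of GSK3A and SNOWBALL_006069_st of MEF2D in 8 each. The remaining 9 probe sets passed in 9 to 18. Each of these genes kept its direction in every fit.

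Markers of other cells in the muscle were read beside these results. Neither the 10 adipocyte markers nor the 10 endothelial, 7 fibroblast and 4 nerve or Schwann cell markers measured had a call. Without the 5 arrays of high background CIDEA was called, higher in PiNN (4.17% of the adipocyte probe sets). EMCN was then called, higher in Duroc (5.26% of the endothelial probe sets). In that setting 5.83% of all tested were called. The adipocyte array means ran from 6.37 to 6.97 in Duroc (mean 6.74) and from 6.33 to 7.26 in PiNN (mean 6.68). The median difference over all adipocyte probe sets was 0.23, but the genes were divided. In the probe set read for each gene, PLIN4, LIPE, CIDEA and LEP had the higher mean in PiNN and the others in Duroc. The endothelial array means ran from 6.28 to 6.84 in Duroc and from 6.32 to 6.81 in PiNN. Of 7 leukocyte markers, C1QA alone, a complement gene of macrophages, was called, higher in PiNN (6.47 and 6.92, adjusted p = 0.00870). This was 5.88% of the 17 leukocyte probe sets, against 4.17% of all tested. AIF1, CD163, CD14 and PTPRC differed by -0.07, -0.06, -0.03 and -0.06, and CD2 by -0.44 (adjusted p = 0.339). CD3E was below background, and array means were 5.10 to 5.66 in Duroc and 5.34 to 5.98 in PiNN. The part of these cells in the member values was not tested.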

How the data were processed

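Total RNA of the longissimus muscle of 20 pigs was hybridized to Affymetrix Porcine Snowball arrays, 1 per animal. The authors deposited 1 log2 signal per probe set and array, and the submitters' processing notes name GCOS 1.1.1. How signals were summarized and normalized is not given in the sources used here. Precision is limited by the number of arrays.

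Of 47845 rows, 45922 porcine probe sets were tested and 1923 others (controls, and probe sets whose names start with hsa, bta or mmu, the prefixes of human, cattle and mouse miRNAs) were not. In the probe annotation 26058 of the tested probe sets had 1 gene symbol, 0 had several and 19864 had none. The annotation is an older one, and names were kept as it gives them. Breeds were compared with limma 3.58.1 (R 4.3.3; lmFit and eBayes, two-sided, with breed and no other term), and adjustment was made over all 45922 probe sets by the Benjamini-Hochberg method (threshold 0.05). The step was tested on simulated data. The study's methods used an analysis of variance with breed as fixed effect, which was run as an alternative. Gene means were taken over the probe sets of a gene above background. Correlations used 100000 permutations.

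Members and gene lists were chosen with earlier results of these data known. Every member probe set is accounted for. From each pathway list at most 4 called genes with the largest differences were to be named. PIK3CA, CAV3, TSC1, RPS6KB1, RAB10, STXBP3 and STX4, and the genes without a call, were named in addition after their values were seen. Animals are labelled as separate pigs, and their relationship was not used.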

Additional observations from a re-analysis of the deposited data

Results flagged for a closer look

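In 104 groups of 10 animals (each breed in each member or named pathway probe set), 3 held an animal whose gap to the next was large against the range of the group by Dixon's test. Chance gives about 1 in 20 groups. Among the 46 groups of the members there were 2. In AKT1, PiNN 49 was lowest at 7.42 on the log2 scale, with the next PiNN animal at 7.90. In SNOWBALL_029225_st of SLC2A4RG, a probe set below background, PiNN 62 was highest at 4.17, with the next at 3.74. In the pathway lists, Duroc 38 was highest at 3.95 in the SOCS6 probe set, with the next Duroc animal at 3.41.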

How the results depend on the processing

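The count of member probe sets that passed was 0, and it was 1, AKT1, with only probe sets above background, after quantile normalization, with array weights, with the background covariate and without the 5 arrays of background above 4 (chosen after seeing the data). It was 0 to 1 when each animal was left out in turn. Of the settings that kept all or most animals, 16 member values turned in sign, none of them called. With the background covariate these were SNOWBALL_042671_st of SLC2A1 (0.00615), SNOWBALL_029225_st of SLC2A4RG (0.00207), SNOWBALL_033124_st of INSR (-0.0533), SNOWBALL_039319_st of IRS1 (0.0672), AKT2 (0.0223) and TBC1D4 (-0.0172). Without the 5 arrays they were SLC2A1 (0.0129), SNOWBALL_020104_st of HK1 (0.0341) and TBC1D4 (-0.0451). With quantile normalization they were HK1 (0.00190), INSR (-0.0177) and TBC1D4 (-0.0196), with centring INSR (-0.00606) and TBC1D4 (-0.00636), and with array weights SLC2A4RG (0.00815) and TBC1D4 (-0.0128). With 1 animal left out, the same probe sets of SLC2A1 ran from -0.0944 to 0.0188, of SLC2A4RG from -0.0415 to 0.0575, of HK1 from -0.0825 to 0.0458, of INSR from -0.0503 to 0.0508, of IRS1 from -0.161 to 0.0590 and of TBC1D4 from -0.0411 to 0.0544. The gene mean of INSR was -0.10 from its brightest probe set alone. The cause of these turns was not tested.

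The pathway lists gave 18 probe sets higher in Duroc and 11 in PiNN. The second count was 7 with centring, 20 with array weights and 17 with the background covariate. With 1 animal left out the counts ran from 10 to 23 and from 2 to 17. The first was 11 without Duroc 28, 38, 42, 46, 58 or 59 and 10 without PiNN 36. The second was 7 without Duroc 32, 38, 42 or 59 or PiNN 19 or 21, 5 without PiNN 20 or 41, 4 without Duroc 43 or 46 or PiNN 36, 3 without Duroc 58, 2 without PiNN 22 and 17 without PiNN 49. No named pathway probe set turned in sign. Over the settings that kept all or most animals their calls were kept in 220 instances and lost in 39. Over all probe sets, the share of calls higher in Duroc was 66.1%, 48.5% with the background covariate, 53.9% without PiNN 49 and 75.6% without the 5 arrays. The background difference was -0.07, and -0.12 by the median (permutation p = 0.0594). No paired analysis was possible because the breeds share no animal numbers.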
